A study of Mus musculus with 21 samples.

Results

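The genes described here encode the cytochrome P450 enzymes of the mouse, taken as every protein-coding gene whose symbol is Cyp followed by a number, a letter and a number. The annotation holds 92 such genes among 21900 protein-coding genes. Binding of the glucocorticoid receptor (GR) was read at sites, each site being a set of overlapping peaks from 18 liver libraries. A site was given to the gene whose span, from the start to the end of the annotated gene, lay nearest to the site's centre and within 50 kb. Of 7398 sites, 30 were given to a cytochrome P450 gene, and they belonged to 22 of the 92 genes. The nearest gene describes where a site lies and does not say which gene it acts on.

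Cytochrome P450 enzymes are haem proteins that use oxygen and electrons from a reductase to oxidise their substrates. In the liver they oxidise drugs and other foreign compounds, turn cholesterol into bile acids, hydroxylate fatty acids and eicosanoids, and make or break down steroid hormones and the active forms of vitamins A and D. GR is a nuclear receptor that binds DNA after it has bound a glucocorticoid, and glucocorticoids are known to act on several P450 genes directly and through other nuclear receptors.

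GR was immunoprecipitated from snap-frozen livers of C57BL/6J mice, and the bound DNA was sequenced (ChIP-seq). Mice breathed normal air (normoxia) or were held at 7% oxygen for 6 h or 24 h, and were then injected with dexamethasone (DEX, a synthetic glucocorticoid, 10 mg/kg) or phosphate-buffered saline (PBS). All were sampled 2 h after the injection, those of the hypoxia groups after a return to 7% oxygen. This gave 6 groups of 3 libraries: normoxia with DEX, 6 h hypoxia with DEX, 24 h hypoxia with DEX, and the same 3 oxygen conditions with PBS. The series' design text calls the 3 libraries of a group biological replicates. No allele or transgene is named in the labels, and no group lacks an injection. Each oxygen condition had 1 input library, used here only as the background of the peak calls.

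The DEX libraries held 5772670 to 13181686 tags and the PBS libraries 8667179 to 43645787. The library labelled normoxia PBS replicate 1 stood apart: the other 8 PBS libraries held at most 16500568 tags, its peaks were 280 bp wide against 178 to 196 bp in the other 17 libraries, and 43.7% of all sites were called in it alone. Every peak had a caller score of at least 50, a minimum that was not scaled to depth. Scaled to 10000000 tags, it stood for 37.9 to 86.6 in the DEX libraries and 11.5 to 57.7 in the PBS libraries. The 86.6 was that of 6 h DEX replicate 2, the shallowest of all libraries with 5772670 tags. Even its weakest peaks therefore carry high counts on this scale. Peaks held 1.38% to 3.68% of the tags with DEX and 0.15% to 1.23% with PBS. Tissue was checked by position only, since no RNA was measured. Of 8 hepatocyte genes, 7 had a site, 5 had one called in 3 or more libraries and 3 (Tat, Alb and Hnf4a) had one gained with DEX. A site was found at 1 of 5 Kupffer cell and leukocyte genes and 1 of 5 stellate cell and cholangiocyte genes. None of these 10 genes had a gained one. Over all protein-coding genes 22.1% had a site and 4.52% a gained one. Of 4 endothelial genes 2 had a site, and that of Stab2 was gained. In whole liver, binding in hepatocytes and in other cells cannot be told apart.

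Some of the sites lay on promoters, and a selection of these is shown first because the receptor's peak covers the bases printed. The stretches are those parts of a site that lie within 250 bases before the gene start of the RefSeq promoter table (assembly GRCm38.p6, the assembly behind mm10), written 5′ to 3′ on the strand of the gene. Of the 92 genes, 72 had a promoter in the table. The gene spans of Cyp4f13, Cyp4f15 and Cyp27a1 begin before the start used in that table. All of the Cyp27a1 stretch, part of the Cyp4f13 stretch and the last bases of the Cyp4f15 stretch therefore lie inside the span. Cyp4f13 and Cyp4f15 hydroxylate fatty acids and eicosanoids, Cyp27a1 is the mitochondrial sterol hydroxylase that opens the acidic route of bile acid synthesis, and Cyp2b10 is the phenobarbital-inducible drug oxidase of mouse liver. Their positions are chr17:32947362-32947494 (minus strand, 133 bases), chr17:32685412-32685632 (plus strand, 221 bases), chr1:74713285-74713380 (plus strand, 96 bases) and chr7:25897428-25897618 (plus strand, 191 bases). Capitals mark every match to GNACA or its reverse complement TGTNC, a short form of the repeat of which a glucocorticoid response element holds a pair.
Cyp4f13: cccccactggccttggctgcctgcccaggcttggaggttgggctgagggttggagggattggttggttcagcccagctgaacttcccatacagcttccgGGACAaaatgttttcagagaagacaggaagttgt
Cyp4f15: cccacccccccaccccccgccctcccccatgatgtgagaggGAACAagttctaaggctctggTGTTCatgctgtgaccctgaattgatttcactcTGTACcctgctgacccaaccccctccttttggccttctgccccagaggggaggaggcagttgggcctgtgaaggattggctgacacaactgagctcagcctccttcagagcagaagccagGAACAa
Cyp27a1: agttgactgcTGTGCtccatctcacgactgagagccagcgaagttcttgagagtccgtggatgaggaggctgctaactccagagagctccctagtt
Cyp2b10: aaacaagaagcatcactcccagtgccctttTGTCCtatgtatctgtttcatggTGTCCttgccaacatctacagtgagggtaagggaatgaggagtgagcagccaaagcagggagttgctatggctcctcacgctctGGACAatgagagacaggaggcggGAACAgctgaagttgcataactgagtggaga

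The Cyp4f13 stretch held 1 such match, the Cyp4f15 stretch 4, the Cyp27a1 stretch 1 and the Cyp2b10 stretch 4. This motif was chosen after the sequences had been read, and 81.3% of the 32851 promoters in the table hold it in their 250 bases. The longer repeat AGAACA (reverse complement TGTTCT, in 16.1% of promoters) was found in none of the 4 stretches. Neither was the full palindrome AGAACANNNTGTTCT (0.00913% of promoters) or the relaxed one GNACANNNTGTNC (0.387%). Both strands were searched, and the short form lies within the longer motifs. A match to TTGCNNAA (reverse complement TTNNGCAA), a form of the motif of the C/EBP factors, was found once in the Cyp2b10 stretch and in 9.56% of promoters. The core of the hypoxia response element, ACGTG (reverse complement CACGT, in 16.6% of promoters), was found in none of the 4. Further promoter stretches covered by sites were not printed. One of them, 202 bases before the start of the non-coding gene Gm41857, lay under a Cyp17a1 site. It held 1 match to ACGTG, 1 to TTGCNNAA and 4 to the short form. These are descriptions of letters in a window, not of bound elements.

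Over the gene family, 22 of 92 genes (23.9%) had a site, against 22.1% of all protein-coding genes, and 10 genes (10.9%) had a site called in 3 or more libraries, against 7.37% of all. The 22 genes came from 15 of 38 subfamilies. For 5 of these genes (Cyp20a1, Cyp2d34, Cyp2r1, Cyp4f14 and Cyp4v3) the only site was called in normoxia PBS replicate 1 alone. All 15 Cyp2c genes and all 7 Cyp2j genes were without a site, as were Cyp1a1 and Cyp1a2, which oxidise planar aromatic compounds, Cyp2e1, which oxidises ethanol, Cyp3a11, the main drug oxidase of its subfamily, and Cyp7a1, the rate-limiting enzyme of bile acid synthesis. By role, a site was found at 9 of 45 genes of xenobiotic and drug oxidation, 6 of 25 of fatty acid and eicosanoid oxidation, 2 of 6 of bile acid and cholesterol metabolism, 2 of 6 of steroid hormone synthesis, 2 of 6 of vitamins A and D and 1 of 4 others. The absence of a site means that no library had a peak above the caller's minimum within the distance used. A site 51642.5 bp from Cyp2d40, called in 5 DEX libraries, fell just outside that distance, and one 42244 bp from Cyp2a22, called in 1, just inside.

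**Figure D1:**
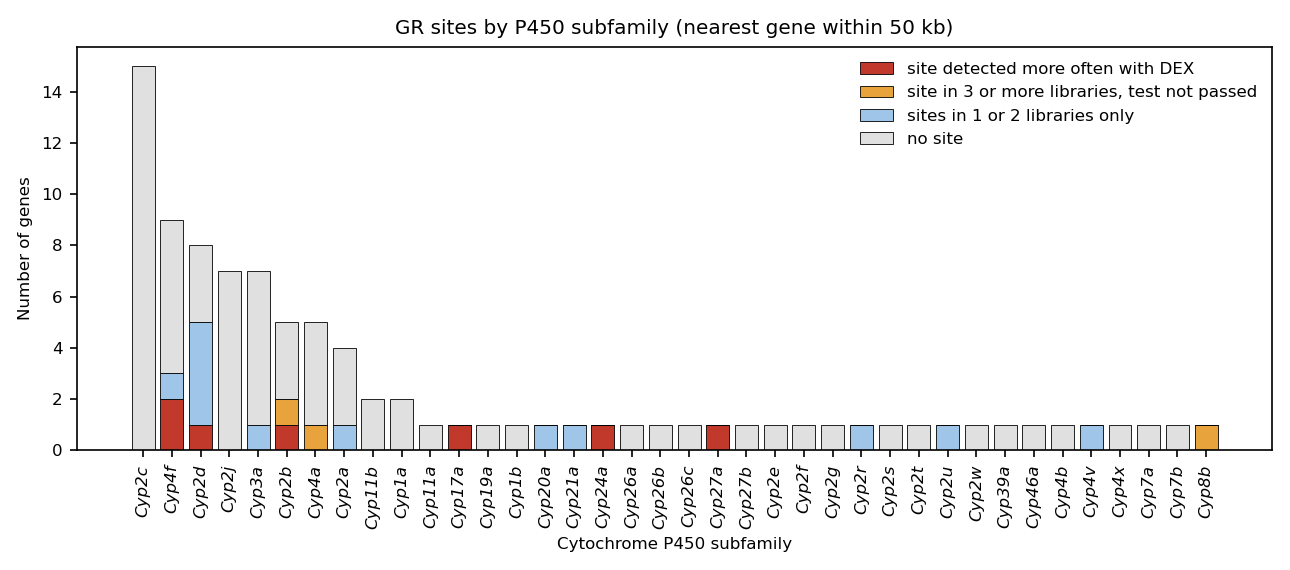
Number of genes (vertical axis) in each of the 38 cytochrome P450 subfamilies (horizontal axis), split by the best site each gene had within 50 kb. The Cyp2c bar, 15 genes, holds no site, while the Cyp4f bar holds 2 of the 7 genes with a site detected more often with DEX.

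Most of the 30 sites were seen once. In 18 a peak was called in a single library, in 1 in 2 libraries and in 11 in 3 or more (36.7% of the 30, against 34.6% of all sites). Of the 18, 10 came from normoxia DEX replicate 1, which had the most tags of the DEX libraries, and 8 from normoxia PBS replicate 1. The first 10 were nearest to Cyp2d11, Cyp17a1, Cyp3a16, Cyp4a31, Cyp2a22 (2 sites), Cyp2b10 (the promoter stretch printed above), Cyp2d9, Cyp21a1 and Cyp2d10, with 40.2 to 64.5 normalized tags, that is, tags per 10000000 of the library. The 8 from the PBS library were nearest to Cyp20a1, Cyp2d10, Cyp2d34, Cyp4f14, Cyp4f13, Cyp2u1, Cyp2r1 and Cyp4v3, with 10.8 to 20.2 normalized tags. These counts lay below the scaled minimum score of every DEX library. The site in 2 libraries lay inside Cyp2u1 and had 58.4 and 63.5 normalized tags in normoxia DEX replicates 1 and 3.

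The positions were mixed. Inside a gene span lay 14 of the 30 sites (46.7%, against 66.8% of all sites), upstream 10, downstream 1, and 5 outside a gene whose strand the annotation does not give. Among sites called in 3 or more libraries, 6 of 11 lay inside (54.5%), against 55.3% of all such sites. A further cytochrome P450 gene lay within 50 kb of 13 of the 30 sites and of 5 of the 11, since many of these genes stand in tandem clusters. Chromosomes 7 and 15 held 6 sites each and chromosome 17 held 5. A site overlapped the promoter window of its own gene (250 bases before to 50 after the start) in 9 cases, of which 4 came from normoxia PBS replicate 1 alone and 3 were called in 3 or more libraries. Over all 102 peaks of the 30 sites, tags per peak numbered 47 to 178 with a median of 74, and the authors' fold over input was 4.23 to 228 with a median of 39.6.

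DEX against PBS was compared by detection, that is, by whether a library's list held a peak at the site, because no cytochrome P450 site was called in all 18 libraries. The 11 sites called in 3 or more libraries were tested, and 7 were detected more often with DEX: those of Cyp2d22, Cyp4f13, Cyp2b10, Cyp27a1, Cyp17a1, Cyp4f15 and Cyp24a1. None was detected less often. List length left little room for that: 8 of the 9 PBS lists held 78 to 751 peaks, against 1235 to 3659 with DEX. The sites of Cyp2b10, Cyp4f15 and Cyp24a1 had no PBS call, so DEX libraries alone brought them past the filter. The test was an exact two-sided Cochran-Mantel-Haenszel test with the oxygen condition as stratum, adjusted by Benjamini-Hochberg over all 2563 sites tested, with a threshold of 0.05. Over all sites 55.3% were detected more often with DEX, so the 63.6% of the P450 sites lay near the background. The smallest p this design allows is 0.00025. The 4 sites that did not pass were those of Cyp2b19, Cyp4a31, Cyp8b1 and the second of Cyp27a1.

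**Figure D2:**
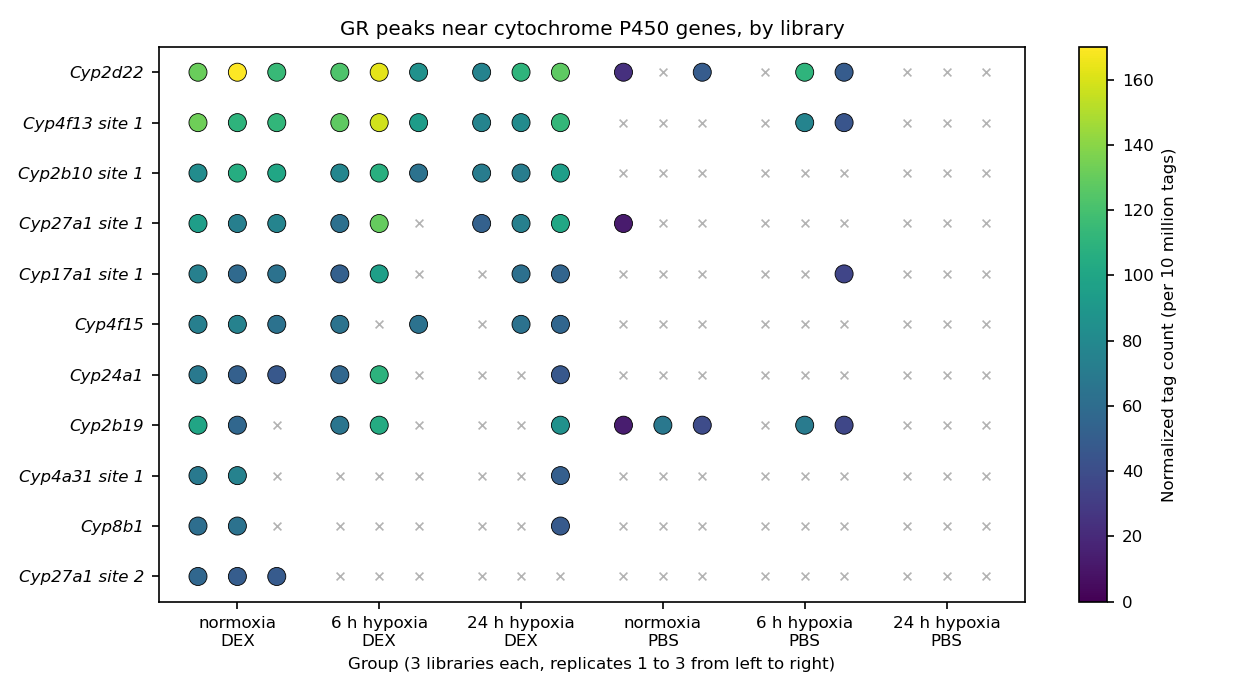
Normalized tag count (colour, per 10000000 tags) of the 11 cytochrome P450 sites called in 3 or more libraries (rows) in the 18 libraries (columns, 3 per group), with a cross where no peak was called. Cyp2d22, Cyp4f13 site 1 and Cyp2b10 site 1 have a peak in all 9 DEX libraries, and the 24 h PBS libraries have none.

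Among the drug-oxidising enzymes, the site inside Cyp2d22 carried the most tags. It lay at chr15:82379545-82379825 (mm10), 9469 bp from Cyp2d11 in the same cluster. Normalized tag counts with DEX were 131.2, 169.9 and 114.6 in normoxia, 122.4, 162.8 and 85.6 after 6 h and 76.1, 110.7 and 128.1 after 24 h of hypoxia. With PBS a peak was called in 4 libraries, at 23.6 and 49.1 in normoxia (replicates 1 and 3) and 110.4 and 49.0 after 6 h (replicates 2 and 3), and in none after 24 h. So all 9 DEX libraries had a peak, and the groups overlapped in tag count through 6 h PBS replicate 2, which also had the largest share of its tags in peaks of any PBS library (1.23%). The mean was 122 ± 31.0 (SD, n = 9) with DEX and 58.0 ± 36.9 (SD, n = 4) over the PBS libraries with a peak. Detection in 9 of 9 against 4 of 9 libraries gave an adjusted p of 0.0452 in the exact test. That call was lost without normoxia PBS replicate 2 (adjusted p = 0.0766, exact test) and without 6 h PBS replicate 1 (0.0770). It was also lost with the replicate number as a block (0.106), with sites called in 2 or more libraries (0.0534) and with no filter on sites (0.130).

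The Cyp2b10 site was the one among the 30 with a peak in every DEX library and in no PBS library. That split was not particular to it: sites of Hnf4a, Alb and the transporter gene Abcc2 had it too. Its share over all sites is not given here. The Cyp2b10 site lay 4277.5 bp upstream of the gene at chr7:25893268-25893493. With DEX it had 81.9, 105.0 and 100.6 normalized tags in normoxia, 77.8, 107.4 and 63.8 after 6 h and 70.9, 71.2 and 94.9 after 24 h, a mean of 85.9 ± 16.3 (SD, n = 9). The lowest of these peaks had a score of 57.1 when scaled to 10000000 tags, and in 8 of the 9 PBS libraries the scaled minimum score was below that, so a peak of the same strength could have been called there. Its p was 0.00025 and its adjusted p 0.00307 in the exact test. With 86.6 normalized tags required of a peak in all libraries, the scaled minimum of the shallowest, the adjusted p was 0.122. The promoter site of the same gene, printed above, was called in normoxia DEX replicate 1 only, at 50.8 normalized tags.

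The third drug-oxidising gene with a repeated site was Cyp2b19, a relative of Cyp2b10 known from skin. Its site lay 10749 bp downstream of the gene at chr7:26783239-26783519 and was called equally often with DEX and PBS. With DEX it had 100.1 and 56.3 normalized tags in normoxia (replicates 1 and 2), 66.4 and 103.9 after 6 h (replicates 1 and 2) and 85.4 after 24 h (replicate 3). With PBS it had 13.5, 68.1 and 38.8 in normoxia and 69.8 and 36.0 after 6 h (replicates 2 and 3). Detection was 5 of 9 in both arms (p = 1 in the exact test). The tag counts overlapped, with means of 82.4 ± 20.7 and 45.2 ± 23.8 (SD, n = 5 each) over the libraries with a peak, and were not tested, since 8 libraries had no value.

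In the fatty acid hydroxylases, both Cyp4f13 and Cyp4f15 had a promoter site that was detected more often with DEX. The Cyp4f13 site (chr17:32947253-32947494) had 132.8, 109.8 and 112.2 normalized tags with DEX in normoxia, 127.6, 157.6 and 93.2 after 6 h and 76.9, 81.4 and 112.3 after 24 h. With PBS a peak was called in 2 of the 6 h libraries, at 76.6 (replicate 2) and 44.7 (replicate 3), and in none of the others. All DEX values lay above both PBS values, the lowest by a margin smaller than the spread between replicates. Means were 112 ± 25.7 (SD, n = 9) with DEX and 60.7 ± 22.6 (SD, n = 2) with PBS, and the adjusted p of detection was 0.00859 in the exact test. In all 7 PBS libraries without a peak the scaled minimum score was below the lowest scaled score seen with DEX (65.8).

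The Cyp4f15 site (chr17:32685412-32685632, 109 bp upstream) was weaker and was seen with DEX only. It had 72.8, 75.4 and 64.3 normalized tags in normoxia, 64.7 and 63.8 after 6 h (replicates 1 and 3) and 64.4 and 55.4 after 24 h (replicates 2 and 3), a mean of 65.8 ± 6.57 (SD, n = 7), and the adjusted p of detection was 0.0112 in the exact test. Its SD was the smallest of the 7 sites that passed. In 4 of 9 PBS libraries the scaled minimum lay above the lowest scaled score of the site (48.3), so a peak of that strength would not have been called there. Cyp4a31, of the subfamily that hydroxylates fatty acids at their end, had a site inside the gene (chr4:115575903-115576110) with 69.0 and 75.4 normalized tags in normoxia DEX replicates 1 and 2 and 50.6 in 24 h DEX replicate 3. Detection in 3 of 9 DEX and 0 of 9 PBS libraries did not pass (adjusted p = 0.230, exact test).

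In bile acid synthesis, Cyp27a1 had 2 sites called in 3 or more libraries and Cyp8b1, the sterol hydroxylase required for cholic acid, had 1. The first Cyp27a1 site lay inside the gene, 8685 bp from its start (chr1:74721693-74721973). With DEX it had 94.8, 72.5 and 76.6 normalized tags in normoxia, 62.1 and 129.9 after 6 h (replicates 1 and 2) and 52.1, 73.5 and 101.2 after 24 h, a mean of 82.8 ± 24.8 (SD, n = 8). With PBS the only peak was that of normoxia PBS replicate 1, at 12.6. The 129.9 of 6 h DEX replicate 2, the shallowest library, was 75 tags. Detection in 8 of 9 against 1 of 9 libraries passed (adjusted p = 0.0112, exact test). Of the 8 PBS libraries without a peak, 4 had a scaled minimum below the lowest scaled score with DEX (46.1). All 8 had one below the median score (65.7). At the common threshold of 86.6 normalized tags the adjusted p was 0.266.

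The second Cyp27a1 site, at the start of the gene (chr1:74713099-74713380), was called in the 3 normoxia DEX libraries and nowhere else, with 56.1, 49.6 and 48.0 normalized tags. It did not pass for DEX against PBS (adjusted p = 0.131, exact test). The Cyp8b1 site, 9120.5 bp upstream (chr9:121925308-121925543), had 60.7 and 64.0 normalized tags in normoxia DEX replicates 1 and 2 and 47.5 in 24 h DEX replicate 3, and its adjusted p was 0.230 in the exact test. The nearest site to Cyp7b1, the next enzyme of the acidic route, lay 381595.5 bp away and was not counted.

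In steroid and vitamin D metabolism, 1 site each was detected more often with DEX. Cyp17a1 encodes the hydroxylase and lyase that leads to androgens. Its site, inside the gene (chr19:46668302-46668547), had 73.6, 58.2 and 64.3 normalized tags with DEX in normoxia, 51.6 and 95.3 after 6 h (replicates 1 and 2) and 62.2 and 54.6 after 24 h (replicates 2 and 3), a mean of 65.7 ± 14.9 (SD, n = 7), and 34.7 in 6 h PBS replicate 3. The DEX values all lay above the PBS one, but so did the scaled minimum score of every DEX library (37.9 or more). A peak as low as 34.7 could thus hardly have been listed with DEX. The highest DEX value, 95.3 in 6 h DEX replicate 2, was 55 tags at the minimum score of 50. Of the 8 PBS libraries without a peak, 4 had a scaled minimum below the site's lowest scaled score with DEX (47.2). The adjusted p of detection was 0.0439 in the exact test. With sites called in 2 or more libraries it was 0.0519, with the replicate number as a block 0.119 and with no filter 0.127. The same site overlapped the tabulated promoter of Gm41857, a long non-coding RNA gene. Cyp24a1, which breaks down the vitamin D hormone, had a site 22949 bp away (chr2:170459886-170460130) with 69.0, 51.5 and 46.4 normalized tags in normoxia, 55.9 and 109.1 after 6 h (replicates 1 and 2) and 45.9 after 24 h (replicate 3), all with DEX (mean 63.0 ± 24.1, SD, n = 6, adjusted p = 0.0216, exact test). With no filter on sites its adjusted p was 0.0622 in the same test, and with the replicate number as a block 0.0657. Its value of 109.1 came from the shallowest library, 6 h DEX replicate 2, as 63 tags with a score of 53 against the minimum of 50. Of the 9 PBS libraries, all without a peak, 5 had a scaled minimum below the site's lowest scaled score (43.3).

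**Figure D3:**
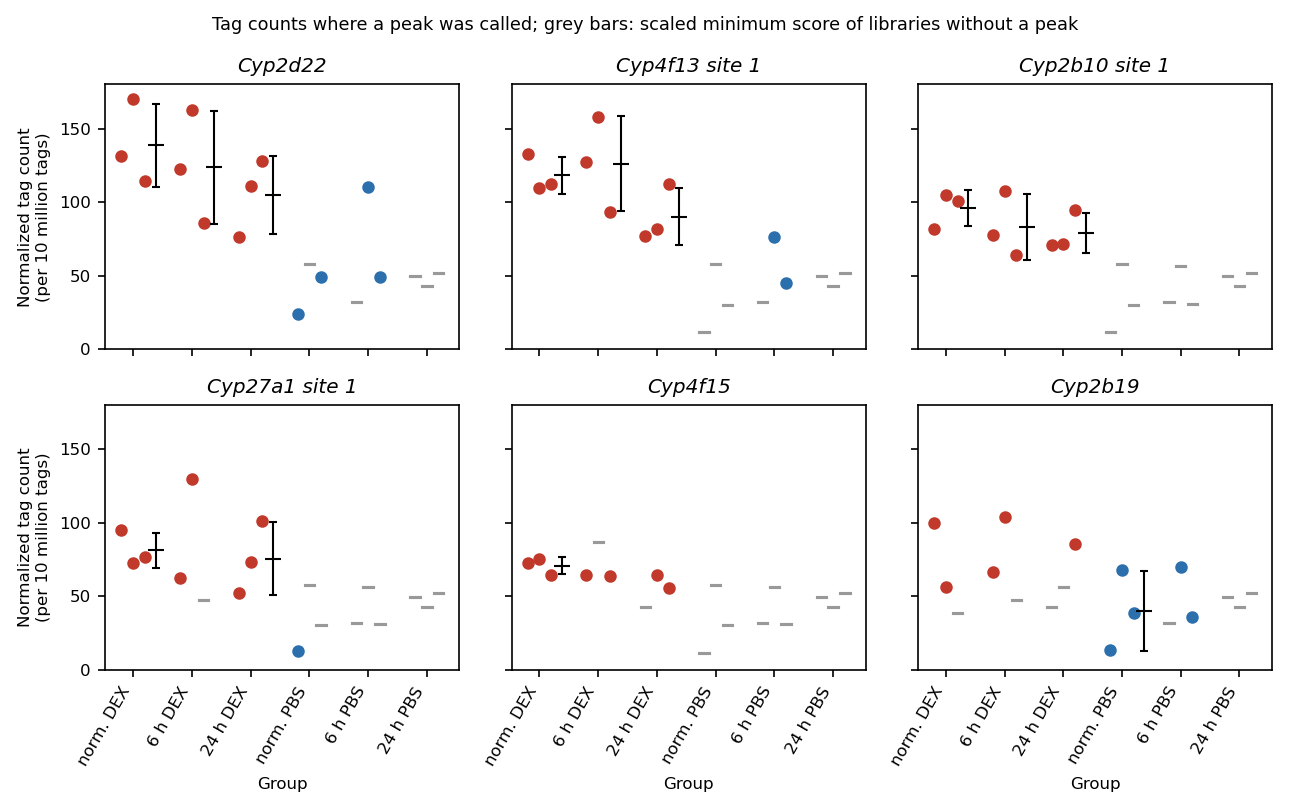
Normalized tag count per 10000000 tags (vertical axis) of 6 cytochrome P450 sites in the 6 groups (horizontal axis): red points are DEX libraries and blue points PBS libraries with a peak, black bars the mean and SD where all 3 libraries had one, and grey bars the scaled minimum score of libraries without a peak. Cyp2b10 site 1 lies between 63.8 and 107.4 with DEX and has no PBS point, while Cyp2b19 has 5 points in each arm.

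With PBS, detection of the P450 sites rested on few libraries. Of the 30 sites, 13 were called in any PBS library, and 4 in any other than normoxia PBS replicate 1. No site was called in any of the 3 libraries of 24 h hypoxia with PBS, where the numbers of sites were 0, 0 and 0, against 0, 3 and 4 after 6 h and 11, 1 and 2 in normoxia. The whole lists of the 24 h PBS libraries were short, with 260, 153 and 78 peaks, against 230, 751 and 622 after 6 h and 3915, 145 and 343 in normoxia, so numbers this low say little about P450 genes. The 3 sites tested for hypoxia against normoxia with PBS (Cyp2d22, Cyp4f13 and Cyp2b19) did not pass Fisher's exact test, and over all 632 sites tested 0.0% passed, with 3 under an unadjusted p of 0.05 and none of those a P450 site.

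With DEX, the number of P450 sites moved with the length of the peak lists. The lists held 22, 11 and 9 of the sites in normoxia, 8, 7 and 4 after 6 h and 4, 6 and 10 after 24 h. Whole lists held 2235 to 3659 peaks in normoxia and 1235 to 2287 in hypoxia, and P450 sites made up 0.36% to 0.60% of the sites called in the normoxia libraries and 0.27% to 0.47% in the hypoxia ones. Of the 8 sites called in all 3 normoxia DEX libraries, 5 were missing from at least 1 of the 6 hypoxia DEX libraries (62.5%), against 975 of 1910 over all sites (51.0%). The share of tags in peaks was 2.85% to 3.68% in normoxia, 1.93% to 3.15% after 6 h and 1.38% to 2.76% after 24 h. It moved broadly with these numbers, except in 6 h DEX replicate 2, which had 3.15% but 1485 peaks and 7 P450 sites. That library was the shallowest, with 5772670 tags and a scaled minimum score of 86.6. The part of depth and of the share of tags in peaks in the counts was not tested. None of the 12 P450 sites tested passed Fisher's exact test of detection in 6 hypoxia against 3 normoxia libraries, where 0.0% of 2938 sites passed and 260 had an unadjusted p under 0.05. The smallest p this test allows, 0.0119, had an adjusted value of 0.343 here, so no site could pass. At the 3 P450 sites called in all 9 DEX libraries detection could not differ.

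The P450 site among those 260 was the second of Cyp27a1, with 3 of 3 normoxia and 0 of 6 hypoxia libraries. Its p was 0.0119, the smallest that 6 against 3 libraries allow, and its adjusted p 0.343 in the exact test. Its peaks in normoxia were close to the caller's minimum. Of the 6 hypoxia DEX libraries, 2 had a scaled minimum below the lowest scaled score of the site (43.3) and 4 below the median one (48.7), so in the other libraries a peak of that strength would not have been called.

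Tag counts with DEX were compared between oxygen conditions at the sites called in all 9 DEX libraries, which were 935 over the genome and 3 near P450 genes. These 3 stood in the lower part of the range. By mean tag count Cyp2d22 lay at percentile 38.7 of the 935, Cyp4f13 at 29.3 and Cyp2b10 at 6.42, where the median site had 139.8 normalized tags. Group means in normoxia, after 6 h and after 24 h were 139 ± 28.4, 124 ± 38.6 and 105 ± 26.5 for Cyp2d22. They were 118 ± 12.6, 126 ± 32.2 and 90.2 ± 19.3 for Cyp4f13, and 95.8 ± 12.3, 83.0 ± 22.3 and 79.0 ± 13.8 for Cyp2b10 (SD, n = 3 each). The groups overlapped at Cyp2d22 and Cyp2b10, and at Cyp4f13 the normoxia values lay inside the range of the 6 h values.

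After each library had been centred on its median, none of the 3 changed in limma. For 6 h and 24 h together against normoxia, the log2 difference was -0.15 ± 0.14 (SE) for Cyp2d22 (adjusted p = 0.596, 95% interval -0.44 to 0.14). It was -0.020 ± 0.14 for Cyp4f13 (adjusted p = 0.948, -0.33 to 0.28) and -0.11 ± 0.16 for Cyp2b10 (adjusted p = 0.753, -0.44 to 0.23). Over all 935 sites 5.13% passed in this contrast, 2.57% for 6 h against normoxia, 4.17% for 24 h against normoxia and 1.39% for 24 h against 6 h, and no P450 site passed in any or had an unadjusted p under 0.05. With a library left out the first of these ranged from -0.24 to -0.0086, the second from -0.082 to 0.055 and the third from -0.26 to -0.023, and without centring the 3 values were -0.30, -0.17 and -0.26, again with none called. The intervals still allow changes of some size: that of Cyp2b10 at 6 h against normoxia, for example, ran from -0.60 to 0.17.

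**Figure D4:**
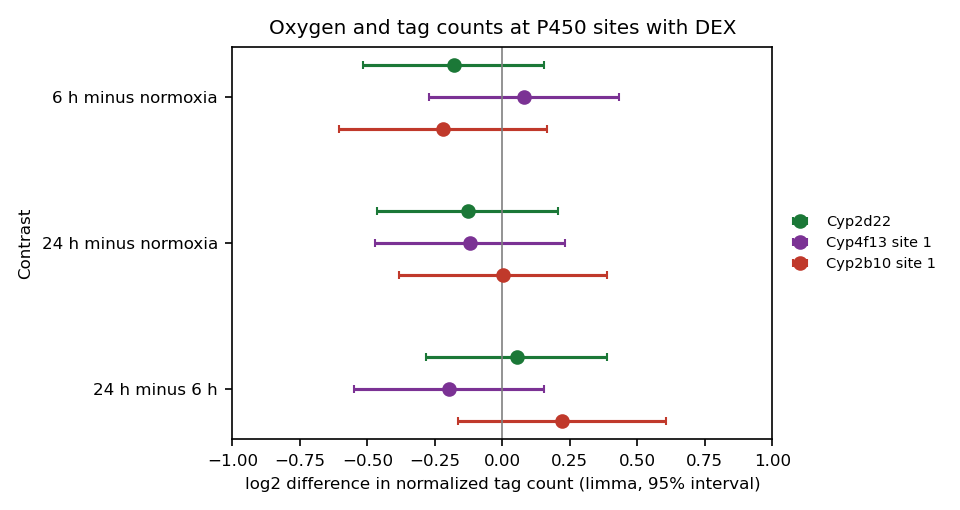
Log2 difference in centred tag count with DEX (horizontal axis, points with 95% intervals from limma) for 3 contrasts of oxygen condition (vertical axis) at the 3 cytochrome P450 sites called in all 9 DEX libraries. Every interval includes 0, and the largest differences, for Cyp2b10, are -0.22 at 6 h against normoxia and 0.22 at 24 h against 6 h.

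Genes that control or serve the P450 enzymes were read in the same way from 4 lists of textbook knowledge. Of 19 regulators, 16 had a site, 11 had one called in 3 or more libraries and 9 had one detected more often with DEX. Over all protein-coding genes these shares were 22.1%, 7.37% and 4.52%. The 9 regulators were Nr1i2 (PXR, the receptor for many drugs), Ahr (the receptor for aromatic compounds that acts on Cyp1a genes), Rxra (the partner of many nuclear receptors), Nr5a2, Hnf4a, Ppara, Tef, Hlf and Nfil3. The strongest Nr1i2 site was called in every library of both arms, so its detection could not differ. Its mean was 290 ± 63.2 normalized tags in DEX libraries (SD, n = 9) against 107 ± 59.9 in PBS libraries (SD, n = 9), which was not tested. The 2 Nr1i2 sites detected more often with DEX were weaker, at 79.8 ± 27.8 (SD, n = 5) and 74.3 ± 29.6 (SD, n = 7), without a PBS peak. The main Ppara site, inside the gene, had 267 ± 61.7 normalized tags with DEX (SD, n = 9) and a peak in 1 PBS library at 138.6 (adjusted p = 0.00438, exact test), and the Hnf4a site 92.6 ± 23.1 (SD, n = 9) and no PBS peak (adjusted p = 0.00307, exact test). Of 10 redox partners and genes of haem supply, 3 had such a site: Cyb5a, an electron donor, Hmox1, which breaks down haem, and Alas1, the first enzyme of haem synthesis, whose strongest site had 259 ± 67.0 normalized tags with DEX (SD, n = 9) and 119 ± 66.9 in 4 PBS libraries (adjusted p = 0.0452, exact test).

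Of 20 conjugating enzymes, which act on the products of P450 enzymes, 3 had a site detected more often with DEX: Sult1a1, Sult2a1 and Gstt1, the last with 145 ± 22.1 normalized tags with DEX (SD, n = 9) and peaks in 2 PBS libraries (adjusted p = 0.00859, exact test). Of 13 transporters, 3 had one: Abcc2 and Abcc3, export pumps for conjugates, and Slco1b2, an uptake carrier. The Abcc2 site with the most tags had 133 ± 46.6 (SD, n = 9) and no PBS peak (adjusted p = 0.00307, exact test). Over all protein-coding genes 4.52% had such a site, and over the P450 genes 7 of 92 (7.61%).

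Of the 11 sites of these 4 lists that were called in all 9 DEX libraries, 1 passed for tag count in hypoxia against normoxia (9.09%, against 5.13% of all 935 sites). It was that of Ahr, and it fell. The site lay inside the gene (chr12:35506434-35506666) and had 352.0, 304.5 and 266.3 normalized tags in normoxia, 196.7, 351.7 and 170.3 after 6 h and 71.8, 153.7 and 182.7 after 24 h, and with PBS a single peak, at 62.0 in 6 h replicate 2. The 24 h values all lay below the normoxia values, and the 6 h values overlapped both. The log2 difference of hypoxia from normoxia was -0.70 ± 0.15 (SE, limma, adjusted p = 0.0137), and that of 24 h from normoxia -0.99 ± 0.17 (limma, adjusted p = 0.00473). At 6 h against normoxia it was -0.41 ± 0.17 and did not pass (limma, adjusted p = 0.259), nor did 24 h against 6 h pass (limma, adjusted p = 0.114). The call for hypoxia against normoxia was lost without normoxia DEX replicate 2 (-0.71, adjusted p = 0.0650) and without centring (-0.85, adjusted p = 0.125).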

How the data were processed

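GR ChIP-seq of mouse liver gave 18 peak lists, 3 per group, grouped by title. Per the submitters' processing notes, reads were handled with Trimmomatic, BWA 0.7.17, SAMtools 1.10 and HOMER on mm10, with no order or settings stated. For HOMER no version is given in the sources used here. Peaks were called per library against the matching input, needing 4-fold over input and surroundings with a Poisson p of 1e-04, per the file headers.

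The deposited signal is the authors' normalized tag count per 10000000 tags, and input tags are a deposited signal too. The deposited score is the authors' caller score. Fold over input is a deposited ratio, taken by the authors' caller. Score and fold only described, ranked or filtered peaks. Deposited depth was 5772670 to 43645787 tags. A shallow library misses weak peaks, because the minimum score was not scaled.

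Peaks overlapping by 1 bp were merged into sites (Python 3.11.15, pandas 2.3.3, SciPy 1.17.1), with the highest peak's tag count. Genes came from a GRCm38.p6 RefSeq table, where 20 of the 92 P450 genes lack a strand. Detection was tested in sites called in 3 of 18 (DEX) or 2 of 9 libraries (hypoxia) with exact Cochran-Mantel-Haenszel and Fisher tests. Log2 tag counts of the authors' values were tested with limma 3.58.1 (R 4.3.3), with no pseudocount, in sites called in all 9 DEX libraries. All p-values were adjusted by Benjamini-Hochberg over all sites. Means leave out libraries without a peak. Both tests were tested on simulated data. Named were P450 genes with a site in 3 or more libraries (values per library for those in all 9 DEX libraries, past a test, or in 2 or more PBS libraries, further ones being added after their values were seen), names of the rest, and related genes whose site passed a test. The P450 genes, related lists and tests were chosen with earlier results of these data known. Alternatives were other thresholds, filters, distances and centring, a replicate block, and each library left out.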

Additional observations from a re-analysis of the deposited data

How the results depend on the processing

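The number of P450 sites detected more often with DEX, 7 of 11, was 6 to 7 when each library was left out in turn, 2 of 4 tested at a common threshold of 86.6 normalized tags (Cyp2d22 and Cyp4f13), 4 of 30 with no filter on sites, and 0 at equal list lengths of 78 peaks, where 0 P450 sites could be tested. It was 7 with peaks of at least 8-fold over input or merging at 100 bp, and 5 with sites called in 2 or more libraries. With the replicate number as a block it was 4, and Cyp2d22 (adjusted p = 0.106), Cyp17a1 (0.119) and Cyp24a1 (0.0657) did not pass. Same-numbered DEX libraries correlated at 0.0060 to 0.506, median 0.23 (9 pairs, 7 over 0.1), against a median of -0.14 for differently numbered ones (18 pairs, 4 over 0.1), and 12 of 18 best matches carried the library's own number. This leans towards a shared number, but not every pair was over 0.1 and the labels name no link, so the fit without the block was kept. In tag counts between oxygen conditions, where a block was fitted, it changed no P450 call. The number of P450 sites, 30, was 22 without normoxia PBS replicate 1 and 24 to 31 under other distances, reference points and overlaps. No P450 site passed between oxygen conditions under any alternative run. The log2 difference of hypoxia from normoxia at Cyp4f13 was -0.082 to 0.055 with a library left out, turning above 0 in 3 of 9 fits. Without centring the median log2 difference over all 935 sites moved from 0.052 to -0.098. The planned limma comparison of tag counts between DEX and PBS, with its alternatives, was not run, because no P450 site had a value in all 18 libraries, and with PBS the common threshold left no P450 site to test between oxygen conditions. Depth limits the reading of a missing peak: where the scaled minimum score of a library lay above the score of a site elsewhere, no peak of that strength could be listed.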
